A study of Mus musculus with 30 samples.

Results

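The comparison examined here is whether the response of a tumour's RNA to an antibody against PD-1 differs when the tumour cells lack B2m. For each gene, the aPD1 effect in B2m knockout (B2mKO) tumours, aPD1 minus IgG1, was set against the same effect in wild-type (WT) tumours, and the difference of those effects was tested. It compares 20 of the 30 libraries of the series, 5 in each of 4 groups. It covers every gene with enough counts, which was 15505 of the 55471 genes in the deposited table. The other 10 libraries, of Jak1 knockout (Jak1KO) tumours given the same antibodies, entered the same fit and shared in the estimate of spread. Tumours were subcutaneous MC38, a mouse colon carcinoma line, in female C57BL/6 mice aged 6 to 8 weeks. The 4 groups were B2mKO aPD1, B2mKO IgG1, WT aPD1 and WT IgG1: tumours of cells with loss-of-function mutations in B2m or of WT cells, in mice given 100 µg of a PD-1 antibody (aPD1) or of control IgG1 into a vein on days 7, 10 and 13. All were collected on day 14, and about 50 mg of each was used for paired-end sequencing of RNA. The host cells in every tumour carried an intact B2m, and the labels do not say whether the B2mKO line was 1 clone. Nor do they state that libraries are from separate mice, and the p-values therefore reflect the spread among libraries, those of Jak1KO tumours included.

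B2m encodes the light chain without which MHC class I molecules do not reach the cell surface, so tumour cells that lack it cannot present peptides to CD8 T cells by that route. PD-1 is an inhibitory receptor of activated T cells, and blocking it can restore their killing and their release of interferon gamma. Interferon gamma acts through JAK kinases and STAT transcription factors on tumour, stromal and myeloid cells alike, and induces genes of antigen presentation, GTPases of cell defence, chemokines and Cd274, which encodes the PD-1 ligand PD-L1.

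B2mKO aPD1 replicate 2 and WT IgG1 replicate 3 stood apart from their groups, with summed collagen levels of 13068 and 9937 CPM, below the other 4 of their groups, and summed proteasome subunit levels of 6090.0 and 6067 CPM, above them. Without both of these libraries, 0 genes passed the threshold for the difference (edgeR adjusted p under 0.05).

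For 15 genes, 0.0967% of those tested, the effect of aPD1 in B2mKO tumours differed from that in WT tumours at an adjusted p under 0.05 (edgeR's quasi-likelihood test, adjusted by Benjamini and Hochberg's method over all genes, as for every adjusted p here). For 13 genes (0.0838%) the effect was lower in B2mKO tumours and for 2 (0.0129%) it was higher. The 13 lower genes were the interferon-inducible GTPases Gbp4, Gbp7 and Irgm1, Cd274, the peptide transporter subunit Tap2, the shared cytokine receptor chain Il2rg, the deoxynucleotide-degrading enzyme Samhd1, the bacterial sensor Nod2, and Nab1, Slco3a1, Slc4a11, Heatr9 and Lrrtm2. The 2 higher genes were Kcne3 and Rwdd2a. Each of the 13 had risen with aPD1 in WT tumours, by 0.28 to 1.96 on the log2 scale, where its effect in B2mKO tumours was between -0.58 and -0.10. Because the difference contains both effects, their signs are a description of these genes and not further evidence. At an unadjusted p under 0.05 the difference was lower for 1038 genes (6.69%) and higher for 1462 (9.43%). With 1 library left out the number of genes past the threshold was between 0 and 125, as set out after the genes themselves.

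For the genes past the threshold in the lists of interferon gamma response and MHC class I genes, the 250 bases upstream of the transcription start are shown for Gbp7, Cd274 and Irgm1, as given by RefSeq (GRCm38.p6). Gbp4 and Tap2 also belong to these lists. The sequences were searched on both strands for TTCNNNGAA, the spaced palindrome that STAT dimers can bind, and for GAAA followed after any 2 bases by GAAA, a core of the element that interferon regulatory factors can bind. Capitals mark matches, and each sequence ends at the base before the start.
Gbp7: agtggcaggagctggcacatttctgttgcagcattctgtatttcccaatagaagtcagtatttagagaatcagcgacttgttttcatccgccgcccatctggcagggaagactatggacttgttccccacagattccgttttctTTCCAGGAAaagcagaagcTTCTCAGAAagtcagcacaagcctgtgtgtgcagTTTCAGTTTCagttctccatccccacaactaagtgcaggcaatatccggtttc
Irgm1: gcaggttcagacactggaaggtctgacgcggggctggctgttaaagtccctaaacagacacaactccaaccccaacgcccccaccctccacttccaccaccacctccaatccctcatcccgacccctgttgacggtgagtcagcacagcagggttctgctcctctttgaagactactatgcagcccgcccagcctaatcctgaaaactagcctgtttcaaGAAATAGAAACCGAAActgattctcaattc
Cd274: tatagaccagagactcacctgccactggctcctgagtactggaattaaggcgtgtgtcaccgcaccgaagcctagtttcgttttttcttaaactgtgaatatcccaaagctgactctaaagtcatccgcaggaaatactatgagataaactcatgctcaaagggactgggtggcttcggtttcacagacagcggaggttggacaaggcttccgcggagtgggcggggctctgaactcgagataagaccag
Gbp7's window (chr3:142530086-142530335, + strand) held TTCNNNGAA at -106 to -98 and at -87 to -79, counted from the start, and the paired GAAA motif on the reverse strand at -53 to -44. Irgm1's window (chr11:48871421-48871670, - strand) held 2 overlapping matches of the paired GAAA motif, at -30 to -21 and -24 to -15. Neither motif occurred in these letters of the Cd274 window (chr19:29367188-29367437, + strand). Of 27025 RefSeq upstream windows of this length, 1940 (7.18%) held TTCNNNGAA and 821 (3.04%) held the paired GAAA motif. Among the 10 of the 15 genes with a window, 2 held each motif. A match is a description of the sequence, and binding was not measured.

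Cd274 (chr19:29367455-29388095 on GRCm38, as all positions here), the ligand of the antibody's target, had the largest lowering among the 13 genes. Cd274 stood at 38.9, 45.7, 28.2, 54.0 and 43.5 CPM in the B2mKO aPD1 tumours and at 63.7, 49.1, 32.8, 64.2 and 38.9 CPM in the B2mKO IgG1 tumours. For Cd274, the WT aPD1 tumours held 197, 161, 139, 59.4 and 177 CPM and the WT IgG1 tumours 33.6, 34.2, 41.6, 52.6 and 26.2 CPM. In WT, every aPD1 tumour was above every IgG1 tumour, with replicate 4 of the aPD1 group nearest to them, whereas the B2mKO groups overlapped and lay in the range of WT IgG1 tumours or a little above. Cd274 had a log2 effect of -0.24 ± 0.283 (SE) in B2mKO against 1.96 ± 0.291 in WT, which differ by -2.20 ± 0.403 (edgeR adjusted p = 0.0298). Gbp4 (chr5:105115767-105139586) encodes a guanylate-binding GTPase. Gbp4 stood at 161, 156, 136, 184 and 153 CPM in the B2mKO aPD1 tumours and at 204, 197, 139.6, 188 and 172 CPM in the B2mKO IgG1 tumours. For Gbp4, the WT aPD1 tumours held 477, 509, 523, 251 and 563 CPM and the WT IgG1 tumours 118, 152, 229.8, 233 and 84.0 CPM. The WT groups were apart and the B2mKO groups overlapped. On the log2 scale Gbp4's effect of aPD1 was -0.19 ± 0.242 in B2mKO, 1.51 ± 0.247 in WT and -1.70 ± 0.345 (SE) as their difference (edgeR adjusted p = 0.0413).

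Gbp7 stood at 189, 126, 137, 189.9 and 191 CPM in the B2mKO aPD1 tumours and at 239, 214, 172, 214 and 209 CPM in the B2mKO IgG1 tumours. For Gbp7, the WT aPD1 tumours held 333, 339, 303, 219 and 384 CPM and the WT IgG1 tumours 129.7, 151, 136, 189.7 and 95.1 CPM. Gbp7 (chr3:142530342-142550149) is another guanylate-binding GTPase, and its WT groups did not overlap, while its B2mKO groups did. The aPD1 effect on Gbp7 was -0.33 ± 0.186 in B2mKO and 1.17 ± 0.188 in WT, a difference of -1.50 ± 0.264 (log2, SE; edgeR adjusted p = 0.0298). Irgm1 stood at 282, 223, 181, 267 and 274 CPM in the B2mKO aPD1 tumours and at 299, 262, 245, 288 and 289 CPM in the B2mKO IgG1 tumours. For Irgm1, the WT aPD1 tumours held 437, 541, 546, 308 and 498 CPM and the WT IgG1 tumours 224, 217, 220.0, 306 and 173 CPM. Irgm1 (chr11:48861968-48871683), an immunity-related GTPase that controls autophagy and vesicle fate, showed WT groups that did not touch and B2mKO groups that overlapped. Irgm1 had a log2 effect of -0.17 ± 0.164 (SE) in B2mKO against 1.03 ± 0.165 in WT, which differ by -1.21 ± 0.232 (edgeR adjusted p = 0.0341). Reads that fit several of the closely related Gbp genes may be lost or misplaced, since the header command holds no option for them, so the Gbp levels are uncertain.

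Tap2 (chr17:34203527-34216321) encodes a subunit of the transporter that moves peptides into the endoplasmic reticulum for MHC class I. Tap2 stood at 139, 99.7, 127, 132 and 124 CPM in the B2mKO aPD1 tumours and at 145, 143, 130.1, 157 and 138 CPM in the B2mKO IgG1 tumours. For Tap2, the WT aPD1 tumours held 134, 165, 167, 132 and 169.9 CPM and the WT IgG1 tumours 97.1, 109.9, 89.2, 138 and 88.7 CPM. Its WT groups overlapped, since the highest IgG1 tumour, replicate 4, exceeded aPD1 replicates 1 and 4, and the B2mKO aPD1 tumours overlapped the B2mKO IgG1 tumours, with replicate 2 far the lowest. On the log2 scale Tap2's effect of aPD1 was -0.20 ± 0.106 in B2mKO, 0.55 ± 0.106 in WT and -0.75 ± 0.150 (SE) as their difference (edgeR adjusted p = 0.0345). Samhd1 (chr2:157097533-157135265) encodes an enzyme that breaks down deoxynucleotides and restricts retroviruses. Samhd1 stood at 209, 131, 201, 223 and 235 CPM in the B2mKO aPD1 tumours and at 212, 196, 221, 226 and 275 CPM in the B2mKO IgG1 tumours. For Samhd1, the WT aPD1 tumours held 387, 481, 378, 227 and 408 CPM and the WT IgG1 tumours 155, 189, 120.2, 221 and 163 CPM. B2mKO aPD1 replicate 2 was again the lowest of its group, and the WT groups did not overlap. The aPD1 effect on Samhd1 was -0.18 ± 0.186 in B2mKO and 1.15 ± 0.188 in WT, a difference of -1.33 ± 0.264 (log2, SE; edgeR adjusted p = 0.0345).

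Il2rg (chrX:101264378-101268255) encodes the common gamma chain, which the receptors of several lymphocyte growth cytokines share. Il2rg stood at 31.8, 34.4, 22.5, 32.3 and 30.2 CPM in the B2mKO aPD1 tumours and at 30.6, 43.9, 35.5, 35.6 and 44.5 CPM in the B2mKO IgG1 tumours. For Il2rg, the WT aPD1 tumours held 46.6, 71.8, 58.4, 28.5 and 60.5 CPM and the WT IgG1 tumours 15.6, 18.6, 22.1, 27.3 and 16.7 CPM. The WT groups were narrowly apart, and every B2mKO IgG1 tumour was above every WT IgG1 tumour. Il2rg had a log2 effect of -0.33 ± 0.222 (SE) in B2mKO against 1.41 ± 0.227 in WT, which differ by -1.74 ± 0.317 (edgeR adjusted p = 0.0298). Nod2 (chr8:88647315-88688474) encodes a cytosolic sensor of bacterial cell-wall fragments. Nod2 stood at 3.35, 2.25, 2.54, 4.03 and 3.27 CPM in the B2mKO aPD1 tumours and at 3.32, 4.71, 3.24, 4.69 and 3.78 CPM in the B2mKO IgG1 tumours. For Nod2, the WT aPD1 tumours held 12.1, 13.5, 12.0, 4.90 and 10.9 CPM and the WT IgG1 tumours 4.43, 3.98, 2.50, 6.29 and 2.90 CPM. Of the WT aPD1 tumours 4 were well above all others, and replicate 4 lay below 1 WT IgG1 tumour. On the log2 scale Nod2's effect of aPD1 was -0.35 ± 0.243 in B2mKO, 1.41 ± 0.239 in WT and -1.76 ± 0.340 (SE) as their difference (edgeR adjusted p = 0.0341).

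Slco3a1 (chr7:74275419-74554780) and Slc4a11 (chr2:130684113-130697519) encode membrane transporters of the solute carrier families. Slco3a1 stood at 13.2, 7.16, 13.6, 13.6 and 10.6 CPM in the B2mKO aPD1 tumours and at 9.79, 10.4, 12.0, 13.1 and 16.8 CPM in the B2mKO IgG1 tumours. For Slco3a1, the WT aPD1 tumours held 45.7, 62.5, 32.2, 15.3 and 37.0 CPM and the WT IgG1 tumours 8.52, 11.9, 6.06, 14.2 and 9.71 CPM. The WT groups did not overlap, and the B2mKO groups did. The aPD1 effect on Slco3a1 was -0.10 ± 0.282 in B2mKO and 1.94 ± 0.287 in WT, a difference of -2.03 ± 0.400 (log2, SE; edgeR adjusted p = 0.0345). Slc4a11 stood at 7.13, 4.46, 7.37, 6.85 and 6.89 CPM in the B2mKO aPD1 tumours and at 6.87, 10.0, 8.21, 10.5 and 6.04 CPM in the B2mKO IgG1 tumours. For Slc4a11, the WT aPD1 tumours held 20.1, 21.8, 11.2, 8.29 and 14.4 CPM and the WT IgG1 tumours 7.68, 5.59, 4.78, 10.4 and 6.07 CPM. WT aPD1 replicate 4 lay below the highest WT IgG1 tumour, and B2mKO aPD1 replicate 2 was the lowest of the 20. Slc4a11 had a log2 effect of -0.35 ± 0.217 (SE) in B2mKO against 1.13 ± 0.217 in WT, which differ by -1.48 ± 0.307 (edgeR adjusted p = 0.049).

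Nab1 (chr1:52457294-52500679) encodes a corepressor of EGR transcription factors. Nab1 stood at 73.7, 63.5, 68.4, 69.8 and 78.2 CPM in the B2mKO aPD1 tumours and at 98.2, 82.1, 84.7, 84.2 and 84.2 CPM in the B2mKO IgG1 tumours. For Nab1, the WT aPD1 tumours held 96.9, 107, 101, 80.8 and 95.4 CPM and the WT IgG1 tumours 82.2, 78.1, 78.9, 86.8 and 70.9 CPM. All B2mKO aPD1 tumours were below all B2mKO IgG1 tumours, while the WT groups overlapped. On the log2 scale Nab1's effect of aPD1 was -0.29 ± 0.0760 in B2mKO, 0.28 ± 0.0760 in WT and -0.57 ± 0.107 (SE) as their difference (edgeR adjusted p = 0.0298). Lrrtm2, on chromosome 18, encodes a leucine-rich repeat membrane protein known from synapses. Lrrtm2 stood at 5.08, 3.68, 3.71, 4.96 and 3.97 CPM in the B2mKO aPD1 tumours and at 6.13, 6.09, 5.25, 6.28 and 6.85 CPM in the B2mKO IgG1 tumours. For Lrrtm2, the WT aPD1 tumours held 6.73, 7.43, 7.24, 6.26 and 7.21 CPM and the WT IgG1 tumours 2.91, 5.70, 4.67, 3.77 and 3.52 CPM. The groups of each genotype did not overlap, with aPD1 the lower in B2mKO and the higher in WT. The aPD1 effect on Lrrtm2 was -0.52 ± 0.169 in B2mKO and 0.77 ± 0.169 in WT, a difference of -1.28 ± 0.239 (log2, SE; edgeR adjusted p = 0.0298).

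Heatr9 (chr11:83511736-83522175), a gene with HEAT repeats, was scarce: its summed counts over 5 libraries were 43, 69, 78 and 29 in the B2mKO aPD1, B2mKO IgG1, WT aPD1 and WT IgG1 groups. Heatr9 stood at 0.486, 0.392, 0.390, 0.437 and 0.393 CPM in the B2mKO aPD1 tumours and at 0.515, 0.691, 0.375, 0.834 and 0.708 CPM in the B2mKO IgG1 tumours. For Heatr9, the WT aPD1 tumours held 0.937, 0.619, 0.634, 0.424 and 0.984 CPM and the WT IgG1 tumours 0.295, 0.277, 0.167, 0.361 and 0.308 CPM. The WT groups did not overlap, and only B2mKO IgG1 replicate 3 was below the B2mKO aPD1 tumours. Heatr9 had a log2 effect of -0.58 ± 0.259 (SE) in B2mKO against 1.33 ± 0.269 in WT, which differ by -1.91 ± 0.373 (edgeR adjusted p = 0.0345). Heatr9 lies just downstream of the chemokine gene Ccl5 (chr11:83525778-83530518) on the same strand. Ccl5 had 24.6 to 70.9 CPM in B2mKO aPD1, 37.7 to 63.9 CPM in B2mKO IgG1, 37.7 to 142 CPM in WT aPD1 and 18.6 to 53.4 CPM in WT IgG1 tumours, with a difference of -1.42 ± 0.458 (unadjusted p = 0.00442). Reads that run past the end of Ccl5 could not be told apart from reads of Heatr9 in these counts.

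Kcne3 (chr7:100176502-100184869), an accessory subunit of potassium channels, had the larger difference of the 2 genes past the threshold in the other direction. Kcne3 stood at 2.76, 11.0, 3.22, 5.25 and 4.54 CPM in the B2mKO aPD1 tumours and at 3.49, 1.68, 3.19, 4.13 and 2.17 CPM in the B2mKO IgG1 tumours. For Kcne3, the WT aPD1 tumours held 0.221, 0.429, 0.724, 1.55 and 0.433 CPM and the WT IgG1 tumours 5.02, 4.54, 4.72, 2.06 and 2.42 CPM. Kcne3 fell with aPD1 in WT, where the groups did not overlap, and the highest of the B2mKO aPD1 values was that of replicate 2. On the log2 scale Kcne3's effect of aPD1 was 0.87 ± 0.395 in B2mKO, -2.46 ± 0.442 in WT and 3.33 ± 0.593 (SE) as their difference (edgeR adjusted p = 0.0298). Rwdd2a (chr9:86571991-86574899), which encodes an RWD domain protein, had between 76 and 187 counts per group. Rwdd2a stood at 2.00, 2.25, 1.56, 1.85 and 1.48 CPM in the B2mKO aPD1 tumours and at 1.32, 0.821, 1.08, 0.755 and 1.37 CPM in the B2mKO IgG1 tumours. For Rwdd2a, the WT aPD1 tumours held 0.441, 0.667, 0.543, 0.895 and 0.906 CPM and the WT IgG1 tumours 1.05, 0.830, 1.78, 1.34 and 1.10 CPM. All B2mKO aPD1 tumours were above all B2mKO IgG1 tumours, and the WT groups overlapped. The aPD1 effect on Rwdd2a was 0.78 ± 0.227 in B2mKO and -0.80 ± 0.238 in WT, a difference of 1.58 ± 0.329 (log2, SE; edgeR adjusted p = 0.049). In neither genotype alone did Rwdd2a pass the threshold (adjusted p = 0.0523 in WT and 0.813 in B2mKO).

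**Figure D1:**
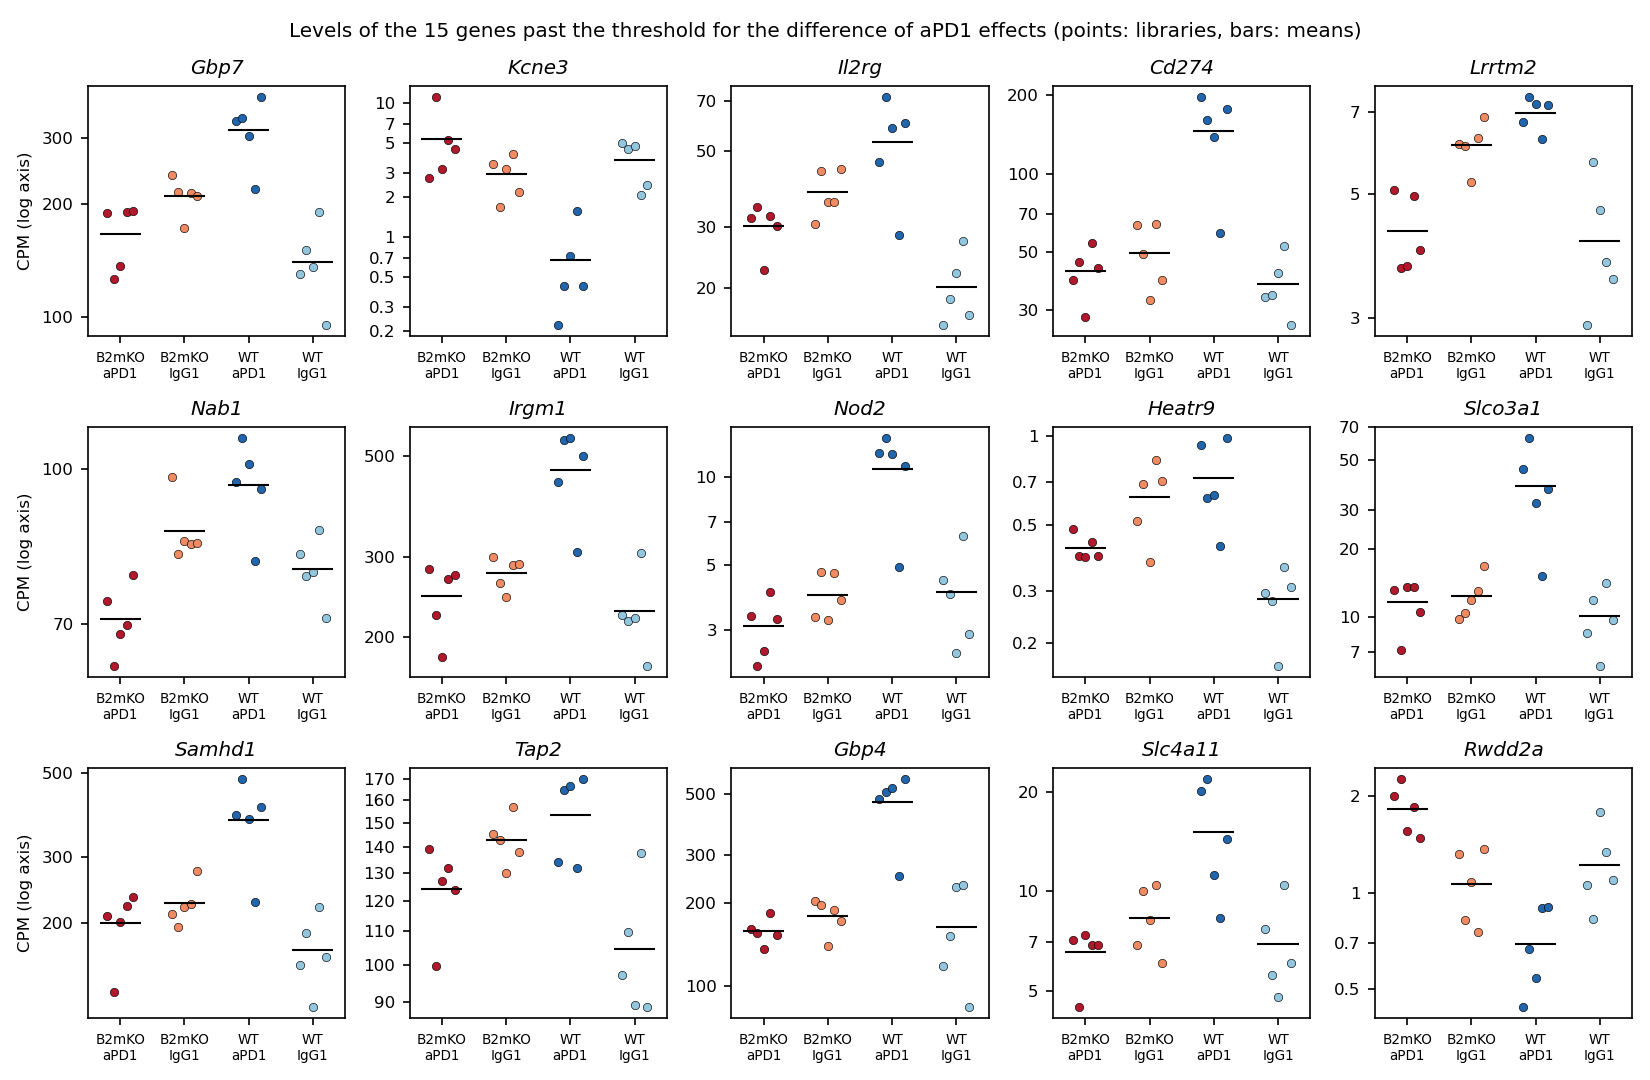
Level of each of the 15 genes past the threshold in every library (points; CPM, log axis, scaled per panel) in the B2mKO aPD1, B2mKO IgG1, WT aPD1 and WT IgG1 groups, with group means as bars. In the 13 genes with a lower effect in B2mKO the lowest WT aPD1 point is replicate 4, and the B2mKO aPD1 mean is below the B2mKO IgG1 mean.

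Across the 15 genes, the WT groups did not overlap for 10 and the B2mKO groups for 3 (Lrrtm2, Nab1 and Rwdd2a), where the groups did not overlap for 1.83% of all genes in WT and for 0.477% in B2mKO. The same libraries chose the 15 genes, so these counts are a description. In B2mKO tumours alone, 5 of the 15 had an unadjusted p under 0.05 (Kcne3, Lrrtm2, Nab1, Heatr9 and Rwdd2a), and none passed after adjustment. WT aPD1 replicate 4 was the lowest WT aPD1 library for all 13 genes with a lower effect in B2mKO. The starting levels also differed: the mean of the B2mKO IgG1 tumours was above that of the WT IgG1 tumours for 12 of the 13, Nod2 being the exception. Under IgG1, B2mKO tumours were higher than WT tumours by 1.14 ± 0.271 for Heatr9, 0.93 ± 0.225 for Il2rg, 0.58 ± 0.186 for Gbp7, 0.58 ± 0.169 for Lrrtm2 and 0.45 ± 0.106 for Tap2 (log2, SE; edgeR adjusted p between 0.00345 and 0.0267). The IgG1 libraries enter both this difference and the difference of effects, with opposite sign.

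The count of 15 depended on single libraries. It was 0 without WT aPD1 replicate 1, 2, 3 or 5, WT IgG1 replicate 1 or 5, B2mKO aPD1 replicate 2, or B2mKO IgG1 replicate 1, 4 or 5. The count was 7 without WT IgG1 replicate 3, 2 without B2mKO aPD1 replicate 3, 6 without B2mKO aPD1 replicate 4 and 9 without B2mKO IgG1 replicate 2. Without WT aPD1 replicate 4 the count was 125, and without WT IgG1 replicate 4 it was 118; both of these sets held all 15 genes. The sign of each of the 15 differences was the same in every one of the 20 omissions, with unadjusted p-values of at most 0.000158. Fitting the 20 libraries without the Jak1KO ones gave 8 genes, 4 of them among the 15.

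**Figure D2:**
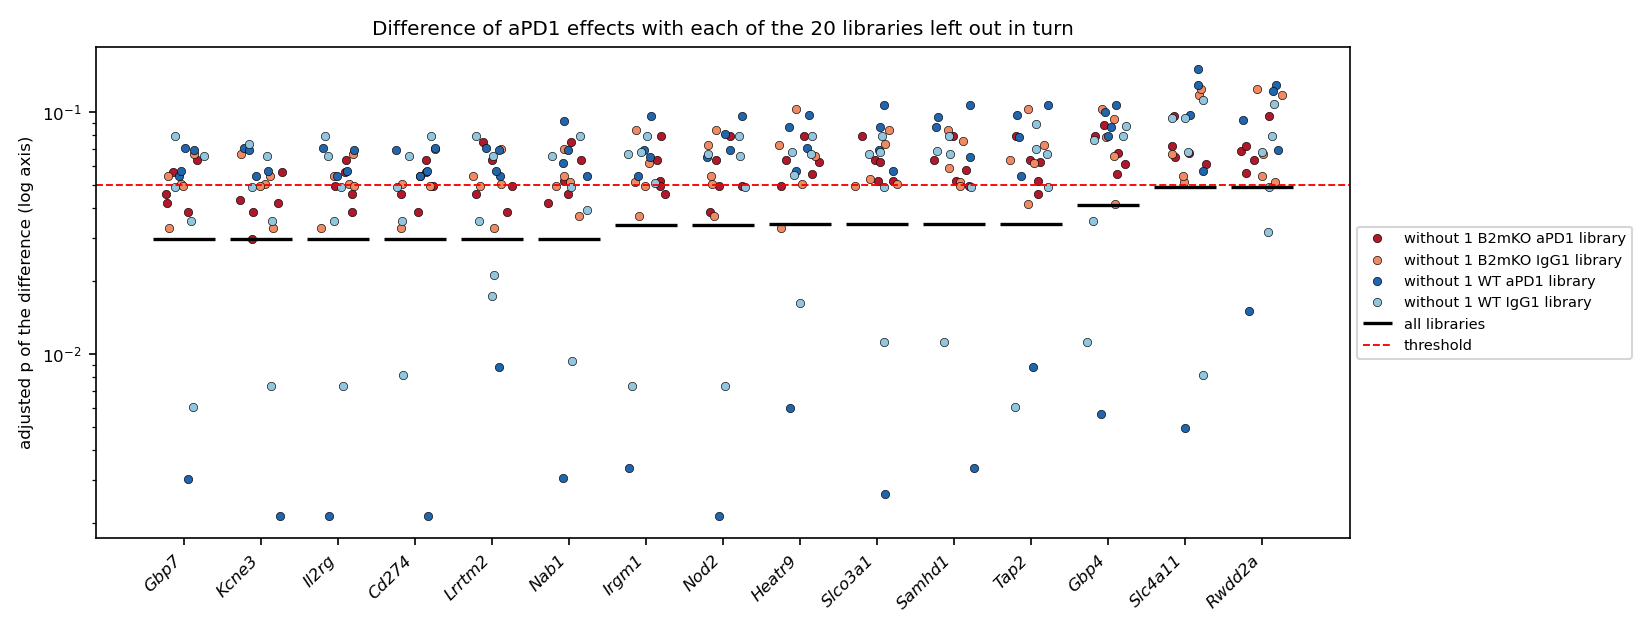
Adjusted p of the difference in aPD1 effect (B2mKO minus WT, log axis) for the 15 genes past the threshold, with all libraries (black bars) and with each of the 20 libraries left out (points, coloured by the group that lost a library); the red line is 0.05. Most points lie above the line, and the lowest point of every gene comes from leaving out a WT aPD1 or WT IgG1 library.

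Just inside the threshold were Slc4a11 and Rwdd2a, both at an adjusted p of 0.049, and just outside it Ttc39b (-0.57, adjusted p = 0.0524) and Ikbke (-1.15, adjusted p = 0.0551). Ikbke encodes a kinase upstream of type I interferon and had 13.1 to 21.9 CPM in B2mKO aPD1, 17.6 to 26.3 CPM in B2mKO IgG1, 19.8 to 37.8 CPM in WT aPD1 and 10.6 to 20.9 CPM in WT IgG1 tumours. Next by p among the genes with a lower effect came Il18bp, an interferon-induced decoy for the cytokine that names it, at -2.31 ± 0.499 (adjusted p = 0.0645), and Tap1, the partner of Tap2, at -1.01 ± 0.219 (adjusted p = 0.0658). Il18bp stood at 37.9, 43.4, 23.9, 49.0 and 36.9 CPM in B2mKO aPD1 and 45.3, 47.1, 36.0, 42.8 and 42.7 CPM in B2mKO IgG1 tumours. In WT it stood at 85.1, 113, 78.6, 26.6 and 87.4 CPM with aPD1 and 11.1, 13.8, 23.2, 29.0 and 11.6 CPM with IgG1, so that 4 of the 5 aPD1 tumours were above all IgG1 tumours. After them came the phosphatase gene Ptpre at -0.88 ± 0.192, the ADP-ribosyltransferase gene Parp11 at -0.91 ± 0.201 and the GTPase gene Igtp at -1.81 ± 0.402 (adjusted p between 0.0685 and 0.0713).

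On the other side, the 6 genes next by p with a higher effect in B2mKO and at least 1 CPM in a group did not pass. Gpr183, a receptor that guides immune cells along oxysterols, had 5.95 to 9.61 CPM in B2mKO aPD1, 4.53 to 8.22 CPM in B2mKO IgG1, 1.54 to 3.25 CPM in WT aPD1 and 4.47 to 9.34 CPM in WT IgG1 tumours, a difference of 1.85 ± 0.398 (adjusted p = 0.0645). Fcrls, a scavenger receptor gene of myeloid cells, had 149.5 to 253 CPM in B2mKO aPD1, 117 to 177 CPM in B2mKO IgG1, 8.93 to 46.0 CPM in WT aPD1 and 25.7 to 152 CPM in WT IgG1 tumours, a difference of 2.69 ± 0.654 (adjusted p = 0.108). In WT tumours both fell with aPD1, and the 4 WT aPD1 replicates other than replicate 4 held the lowest Fcrls values of the 20 libraries. The remaining 4 were Klhl4 (1.96 ± 0.452), Igfbp3 (1.53 ± 0.392), Wscd1 (1.49 ± 0.386) and Nxn (0.46 ± 0.118), with adjusted p between 0.091 and 0.135. Igfbp3, which encodes a carrier of insulin-like growth factors, was at 46.6 to 142 CPM in WT aPD1 against 98.2 to 224 CPM in WT IgG1 tumours.

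The targeted gene checked the labels. B2m (chr2:122147686-122153083) was at 561 to 963 CPM in B2mKO aPD1, 501 to 747 CPM in B2mKO IgG1, 3584 to 5459 CPM in WT aPD1 and 1965 to 4176 CPM in WT IgG1 tumours, so every B2mKO library was below every WT library. The remaining B2m RNA cannot be assigned to host cells or to tumour cells here. The aPD1 effect on B2m was 0.28 ± 0.185 in B2mKO and 0.57 ± 0.185 in WT, a difference of -0.29 ± 0.261 (log2, SE; edgeR adjusted p = 0.539). Jak1, intact in these 4 groups, had a difference of -0.16 ± 0.141 (adjusted p = 0.519). The 10 simple epithelial genes of the marker list were nearly silent in these tumours of a colon carcinoma line. The 6 with enough counts to test summed to between 5.32 and 32.8 CPM per library, and the other 4 were too low to test. Total counts of the 20 libraries were 17833233 to 25944701.

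The 2 effects that make up the comparison differed in how many genes passed the threshold, which is not a test of their difference. In B2mKO tumours 0 genes (0.0%) passed for aPD1, with a smallest adjusted p of 0.813, and 468 (3.02%) reached an unadjusted p under 0.05 by edgeR. The count past the threshold was likewise 0 by DESeq2 and by limma voom. This does not show that aPD1 had no effect in B2mKO tumours. In WT tumours aPD1 changed 630 genes (4.06%), of which 540 (3.48%) rose and 90 (0.58%) fell. Over the 540 genes that rose in WT, the median log2 effect was 0.097 in B2mKO tumours (quartiles -0.058 to 0.28), against 1.13 in the WT tumours that chose them. Of the 540, 359 (66.5%) had an effect above 0 in B2mKO, against 50.8% of all genes tested, whose median was 0.004. Taken one library at a time against the mean of the B2mKO IgG1 tumours, the median over the 540 was 0.016, -0.044, 0.086, 0.243 and 0.154 in B2mKO aPD1 replicates 1 to 5, so the sign was not the same in all 5. Of the 540, 15 (2.78%) had a B2mKO effect of at least 0.5 times the WT effect, against 3325 of all genes (21.4%). Since the 540 were chosen for a high WT effect, which this measure divides by, the shares are not on a par and nothing is read from them.

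The 90 genes that fell in WT had a median log2 effect of 0.07 in B2mKO, against -0.58 in the WT tumours that chose them. Of the 90, 63 (70.0%) were above 0 in B2mKO, against 50.8% of all genes tested. None of the 90 had a B2mKO effect of 0.5 times the WT effect or more, against 21.4% of all genes. These genes too were chosen by the WT effect that this measure divides by, so nothing is read from these shares either. Of the 15 genes with a different effect, 14 were among the 630 changed in WT, Rwdd2a being the other. A gene can pass the threshold for the WT effect and not for the difference, and that by itself does not show equal effects.

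**Figure D3:**
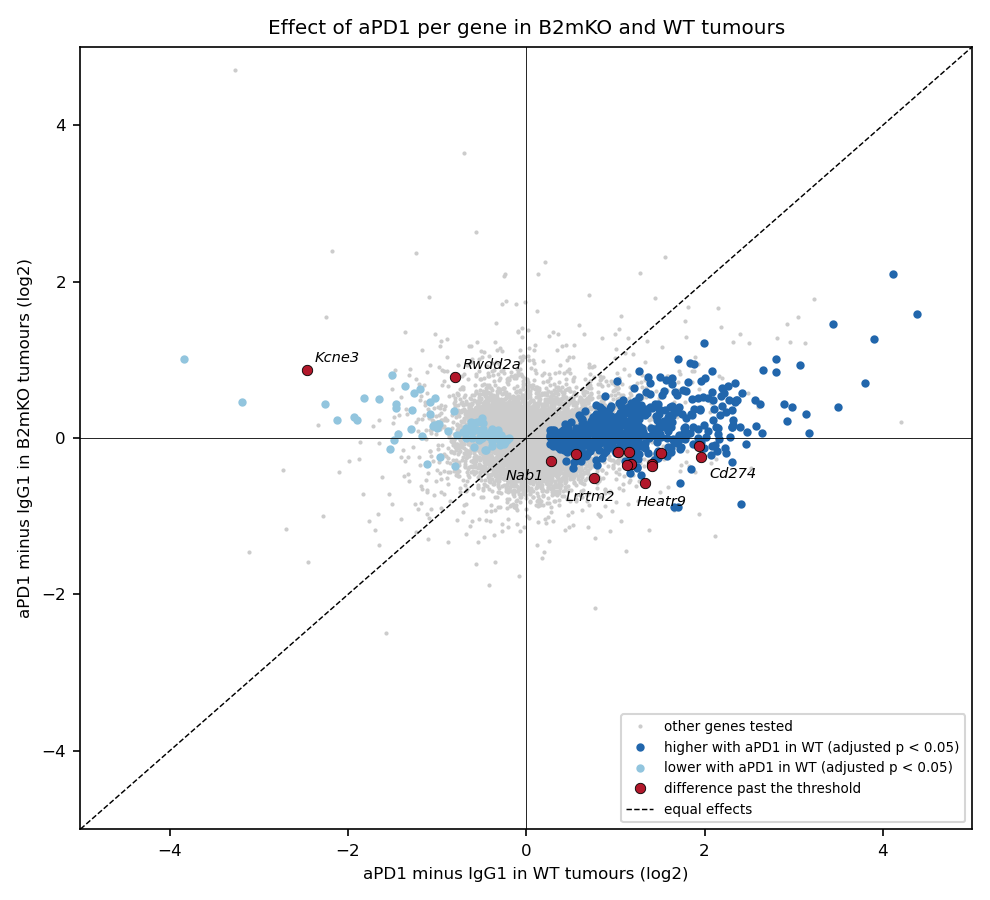
Log2 effect of aPD1 (aPD1 minus IgG1) of each gene tested in B2mKO tumours (vertical axis) against WT tumours (horizontal axis); 1 gene lies outside the axes. Genes that rose or fell with aPD1 in WT (blue) lie near 0 on the B2mKO axis, and the 15 genes with a different effect (red) lie away from the dashed line of equal effects.

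The interferon gamma response genes were lower on balance in their response to aPD1 in B2mKO tumours. Of the 35, all tested, 4 passed the threshold for a lower effect (Cd274, Gbp4, Gbp7 and Irgm1), 29 had an unadjusted p under 0.05 for a lower effect and none for a higher one, against 6.69% and 9.43% of all genes. The difference was below 0 for all 35, against 7669 of all 15505 genes. Their median effect was -0.03 in B2mKO and 1.23 in WT, a median difference of -1.37 against 0.01 over all genes (log2). Their summed level was 4330.0, 4911, 3257, 4572 and 4105 CPM in B2mKO aPD1 and 5045, 4774, 3801, 4852 and 4359 CPM in B2mKO IgG1 tumours. In WT the sum was 9023, 10218, 10632, 5321 and 10434 CPM with aPD1 and 3461, 3554, 5512, 5047 and 2549 CPM with IgG1. Of the WT aPD1 tumours, 4 were above the other 16 libraries, and replicate 4 was within the range of the WT IgG1 group. In bulk tumours, fewer cells of a type and less RNA per cell cannot be told apart.

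Upstream of these targets, 12 of the 20 interferon receptor, JAK, STAT and feedback genes had an unadjusted p under 0.05 for a lower effect and none for a higher one. Over all genes tested, 6.69% were lower and 9.43% higher at that p. None of the 20 passed the threshold. Socs1, a feedback inhibitor of JAK kinases, had -0.93 ± 0.265 (unadjusted p = 0.00149), Stat2 had -0.88 ± 0.266 (unadjusted p = 0.00269) and Irf2, a regulatory factor of the pathway, had -0.48 ± 0.125 (unadjusted p = 0.000734). The median difference of the 20 was -0.46, and -0.26 without WT IgG1 replicate 3 and B2mKO aPD1 replicate 2, the libraries that stood apart. Cxcl10, a chemokine induced by interferons that draws T cells, had -0.34 in B2mKO and 0.80 in WT as effects, a difference of -1.13 ± 0.269 (unadjusted p = 0.000236).

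Type I interferon response genes, which share some targets with interferon gamma, moved by smaller amounts. Of the 25, none passed the threshold. At an unadjusted p under 0.05, 5 had a lower effect and none a higher one, beside 6.69% and 9.43% of all genes. The median difference of the 25 was -0.30, from effects of -0.19 in B2mKO and 0.07 in WT. That median was -0.15 without B2mKO aPD1 replicate 3 and -0.17 without WT IgG1 replicate 5. Oas3, which makes a messenger for an antiviral nuclease, had 47.4 to 135 CPM in B2mKO aPD1, 88.8 to 166 CPM in B2mKO IgG1, 62.7 to 104 CPM in WT aPD1 and 28.6 to 102 CPM in WT IgG1 tumours, a difference of -1.30 ± 0.413 (unadjusted p = 0.00376). Zbp1, a sensor of unusual nucleic acid, had a difference of -0.87 ± 0.301 (unadjusted p = 0.00748). Their levels were already unlike under IgG1: B2mKO minus WT was 1.56 ± 0.297 for Oas3 and 1.13 ± 0.215 for Zbp1 (edgeR adjusted p = 0.000456 and 0.000479). The summed level of the list was 2373 to 4817 CPM in B2mKO aPD1, 3313 to 5611 CPM in B2mKO IgG1, 2208 to 3015 CPM in WT aPD1 and 1568 to 3702 CPM in WT IgG1 tumours.

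Among the 23 MHC class I and peptide processing genes, Tap2 passed the threshold. At an unadjusted p under 0.05, 10 had a lower effect and none a higher one, beside 6.69% and 9.43% of all genes. The median difference of the 23 was -0.42, from 0.07 in B2mKO and 0.47 in WT. Over the alternatives run that median was between -0.64 (without the libraries that stood apart) and -0.29. Nlrc5, the transactivator of MHC class I genes, had 81.3, 24.9, 70.8, 76.0 and 65.3 CPM in B2mKO aPD1 and 78.4, 90.4, 69.5, 70.0 and 72.7 CPM in B2mKO IgG1 tumours. The WT aPD1 tumours held 211, 193, 147, 111 and 211 CPM of Nlrc5 and the WT IgG1 tumours 57.5, 78.8, 29.6, 102 and 44.7 CPM, so the WT groups did not overlap and B2mKO aPD1 replicate 2 was the lowest of all. Its difference was -1.74 ± 0.396 (adjusted p = 0.0844). Tap1 had 168 to 241 CPM in B2mKO aPD1, 194 to 238 CPM in B2mKO IgG1, 251 to 455 CPM in WT aPD1 and 145 to 257 CPM in WT IgG1 tumours. Tapbp, the chaperone that links the transporter to MHC class I, had -0.73 ± 0.179 (unadjusted p = 0.00034), and Erap1, which trims peptides, had -0.35 ± 0.115 (unadjusted p = 0.00547).

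All 10 MHC class II genes had a difference below 0, against 7669 of all 15505 genes, with a median of -1.08. Of the 10, however, 1 had an unadjusted p under 0.05 for a lower effect, beside 6.69% of all genes. That gene was Ciita, the master regulator of the class, with effects of 0.43 in B2mKO and 2.89 in WT and a difference of -2.46 ± 0.992 (unadjusted p = 0.0197). The median of the 10 was between -2.06 and -0.88 over the alternatives run. It was -2.06 without the libraries that stood apart, B2mKO aPD1 replicate 2 and WT IgG1 replicate 3. Cd74, the invariant chain, had 0.84 in B2mKO and 2.80 in WT and a difference of -1.96 ± 1.01 (unadjusted p = 0.0615). The summed level was 288, 1164, 553, 382 and 172 CPM in B2mKO aPD1 and 109, 134, 434, 172 and 436 CPM in B2mKO IgG1 tumours. In WT the class II sum was 5387, 8124, 5771, 911 and 5135 CPM with aPD1 and 333, 740.5, 1767, 1186 and 423 CPM with IgG1. Within each genotype the spread between libraries was wide, and WT aPD1 replicate 4 was below 2 of the WT IgG1 tumours.

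**Figure D4:**
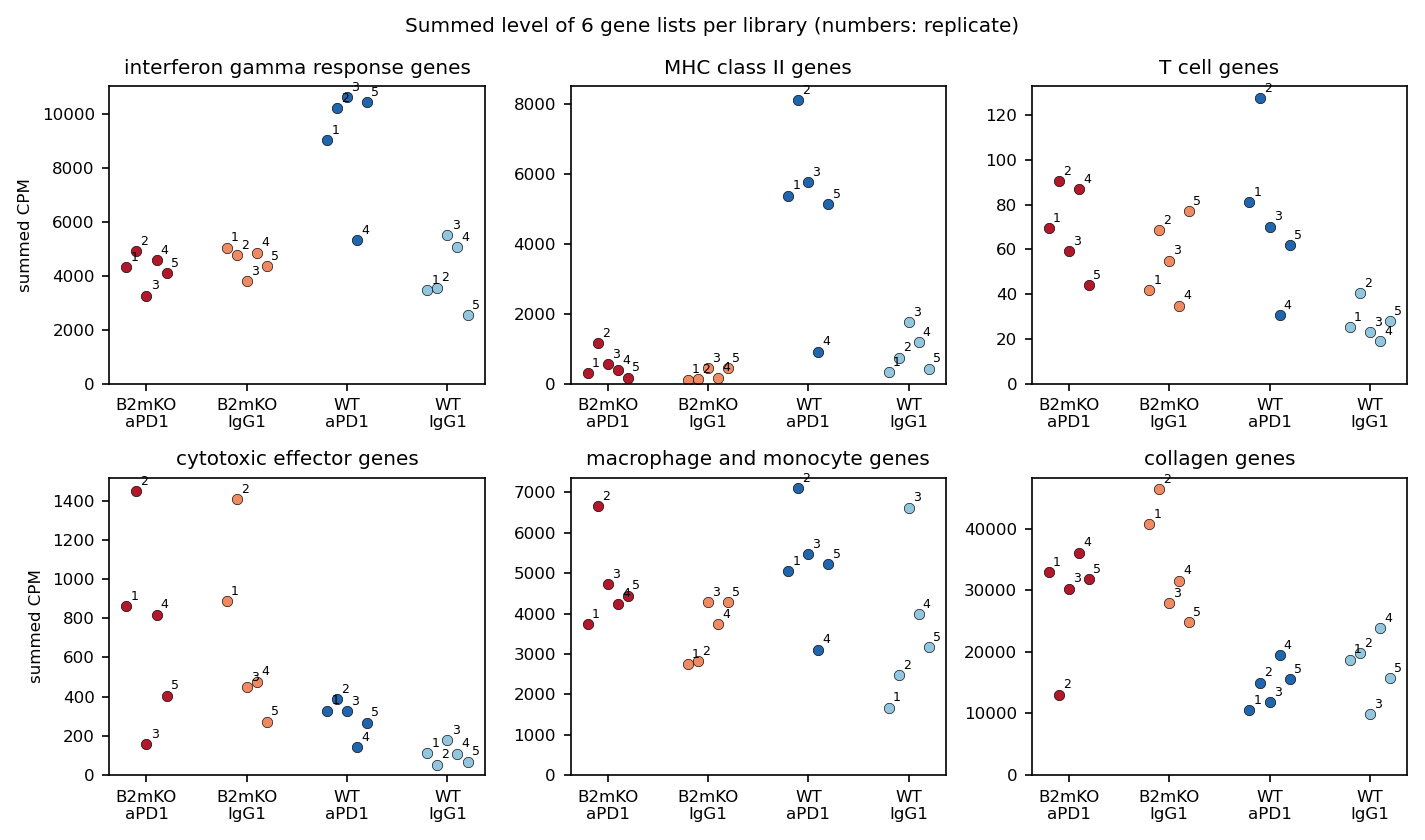
Summed level of gene lists (CPM) in each library of the B2mKO aPD1, B2mKO IgG1, WT aPD1 and WT IgG1 groups. WT aPD1 replicate 4 falls among the WT IgG1 tumours for the interferon gamma response and MHC class II lists, where the other 4 WT aPD1 tumours are the highest of the 20.

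Cytotoxic effector genes had a difference below 0 for 19 of 19, against 7669 of all 15505 genes, with a median of -1.42. At an unadjusted p under 0.05, 7 had a lower effect, beside 6.69% of all genes. None of these cytotoxic genes passed the threshold. Their sum was 863, 1448, 157, 818 and 405 CPM in B2mKO aPD1 and 887, 1406, 447, 476 and 273 CPM in B2mKO IgG1 tumours, and 328, 386, 325, 144 and 268 CPM in WT aPD1 and 111, 53.0, 176, 109 and 68.4 CPM in WT IgG1 tumours. With aPD1, 4 of the 5 B2mKO tumours were above every WT tumour, with IgG1 all 5 were, and the B2mKO aPD1 and IgG1 groups overlapped. Gzmb, a killer protease of cytotoxic granules, had 12.6 to 85.6 CPM in B2mKO aPD1, 27.2 to 93.2 CPM in B2mKO IgG1, 12.5 to 58.6 CPM in WT aPD1 and 3.60 to 19.3 CPM in WT IgG1 tumours, a difference of -2.17 ± 0.831 (unadjusted p = 0.0143). Prf1, the pore former of the granule, had 12.6 to 85.9 CPM in B2mKO aPD1, 18.4 to 135 CPM in B2mKO IgG1, 10.2 to 25.9 CPM in WT aPD1 and 3.71 to 9.22 CPM in WT IgG1 tumours, a difference of -1.98 ± 0.774 (unadjusted p = 0.0164). Tbx21, a transcription factor of effector lymphocytes, had a difference of -1.79 ± 0.680 (unadjusted p = 0.0139). Its counts were few, at 136, 101, 143 and 28 per group in the order B2mKO aPD1, B2mKO IgG1, WT aPD1 and WT IgG1.

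For T cell genes the difference was below 0 for 22 of 22, against 7669 of all 15505 genes, and the median was -0.98. At an unadjusted p under 0.05, 6 had a lower effect, beside 6.69% of all genes, and none of the 22 passed. Median effects were 0.59 in B2mKO and 1.71 in WT, and sums were 44.1 to 90.7 CPM in B2mKO aPD1, 34.9 to 77.2 CPM in B2mKO IgG1, 30.7 to 128 CPM in WT aPD1 and 18.9 to 40.6 CPM in WT IgG1 tumours. Icos, a costimulatory receptor, had -2.16 ± 0.772 (unadjusted p = 0.00917) and Trbc1, a constant region of the T cell receptor, had -1.82 ± 0.673 (unadjusted p = 0.0116). Both rest on few counts in the WT IgG1 group, 68 for Icos and 61 for Trbc1. The common gamma chain list, which holds Il2rg, had 14 of 14 tested genes below 0 and a median of -0.62. Of the 14, 8 were lower at an unadjusted p under 0.05, beside the same 6.69% of all genes. Il2ra had 2.83 to 9.60 CPM in B2mKO aPD1, 6.66 to 11.6 CPM in B2mKO IgG1, 5.84 to 17.6 CPM in WT aPD1 and 3.16 to 10.5 CPM in WT IgG1 tumours, a difference of -1.76 ± 0.472 (unadjusted p = 0.000887). Il2rb had -1.85 ± 0.580 (unadjusted p = 0.00357), Il7r had -1.86 ± 0.545 (unadjusted p = 0.00193) and Il15ra had -0.65 ± 0.172 (unadjusted p = 0.000802); all are chains of receptors that signal with Il2rg. NK cell receptor genes had 1 of 10 lower and 1 higher at an unadjusted p under 0.05, beside 6.69% and 9.43% of all genes. Their median of -0.68 was -0.40 without B2mKO IgG1 replicate 2, -0.42 without B2mKO aPD1 replicate 3, -1.07 without B2mKO aPD1 replicate 2 and by limma voom, and -1.30 without WT IgG1 replicate 3 and B2mKO aPD1 replicate 2.

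Of 17 checkpoint and exhaustion genes, Cd274 passed the threshold, and the median difference was -0.94. At an unadjusted p under 0.05, 8 had a lower effect and none a higher one, beside 6.69% and 9.43% of all genes. Havcr2, which encodes the receptor TIM-3, had 21.2 to 30.8 CPM in B2mKO aPD1, 21.7 to 26.2 CPM in B2mKO IgG1, 23.7 to 68.4 CPM in WT aPD1 and 13.6 to 35.2 CPM in WT IgG1 tumours, a difference of -1.04 ± 0.360 (unadjusted p = 0.00715). Entpd1, an enzyme that degrades extracellular ATP, had -0.98 ± 0.385 (unadjusted p = 0.0171), and Ctla4, an inhibitory T cell receptor, had -1.88 ± 0.754 (unadjusted p = 0.0191). Ctla4 had few counts in the WT IgG1 group (54). Beside 6.69% of all genes, 3 of 7 tested regulatory T cell genes (of 8) had an unadjusted p under 0.05 for a lower effect. Foxp3, their defining transcription factor, had 0.245 to 1.12 CPM in B2mKO aPD1, 0.286 to 1.51 CPM in B2mKO IgG1, 0.471 to 1.32 CPM in WT aPD1 and 0.211 to 0.553 CPM in WT IgG1 tumours, a difference of -1.74 ± 0.551 (unadjusted p = 0.00381) at few counts (66, 80, 103 and 33 per group in the order B2mKO aPD1, B2mKO IgG1, WT aPD1 and WT IgG1).

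Myeloid genes were mixed. Of 21 macrophage and monocyte genes, 3 had an unadjusted p under 0.05 for a lower effect and 1 for a higher one. Over all genes tested these shares were 6.69% and 9.43%, which apply to every list in this paragraph. The macrophage and monocyte median was -0.17, from effects of 0.33 in B2mKO and 0.61 in WT. That median was between -0.66 and 0.0 over the alternatives run. Mrc1, a mannose receptor of tissue macrophages, was the gene on the higher side, with 110.3 to 242 CPM in B2mKO aPD1, 81.2 to 129 CPM in B2mKO IgG1, 27.7 to 76.8 CPM in WT aPD1 and 29.3 to 89.4 CPM in WT IgG1 tumours and a difference of 1.03 ± 0.439 (unadjusted p = 0.0263). Sums of the list were 3743 to 6664 CPM in B2mKO aPD1, 2749 to 4291 CPM in B2mKO IgG1, 3103 to 7099 CPM in WT aPD1 and 1668 to 6627 CPM in WT IgG1 tumours. Of 10 tested dendritic cell genes (of 12), 5 had a difference below 0 and 5 above, with a median of -0.03; 3 were lower at that p, among them Itgax (-1.56 ± 0.408 (unadjusted p = 0.000687)) and Clec9a, a receptor for dead cells on cross-presenting dendritic cells (-1.65 ± 0.574 (unadjusted p = 0.00776)). Of 10 tested neutrophil genes (of 13), 5 were lower, among them Clec4d (-1.96 ± 0.485 (unadjusted p = 0.000394)), Acod1 (-2.19 ± 0.642 (unadjusted p = 0.00203)) and Csf3r (-1.35 ± 0.465 (unadjusted p = 0.007)). The neutrophil median was -0.76, and between -1.50 (without WT IgG1 replicate 1) and -0.61 over the alternatives run. Of 28 chemokine and chemokine receptor genes, 4 were lower and 1 was higher, beside 6.69% and 9.43% of all genes. The higher one was Ccl9 (1.13 ± 0.401 (unadjusted p = 0.00897)), whose highest values in B2mKO aPD1 and WT IgG1 tumours came from the libraries that stood apart, B2mKO aPD1 replicate 2 and WT IgG1 replicate 3.

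In the stromal lists no gene passed the threshold, and in 3 of them more genes were higher than lower at an unadjusted p under 0.05. Of 16 fibroblast genes, 4 had an unadjusted p under 0.05 for a higher effect and 1 for a lower one, against 9.43% and 6.69% of all genes, and the median was 0.36 (0.20 without WT IgG1 replicate 2). Mfap4, a microfibril protein, had 106 to 462 CPM in B2mKO aPD1, 87.2 to 274 CPM in B2mKO IgG1, 4.63 to 13.1 CPM in WT aPD1 and 14.2 to 31.9 CPM in WT IgG1 tumours, a difference of 1.83 ± 0.477 (unadjusted p = 0.000674). Lum, a matrix proteoglycan, had 1.56 ± 0.546 (unadjusted p = 0.00806), and Fap, a membrane protease of activated fibroblasts, had 1.27 ± 0.462 (unadjusted p = 0.0106). None of 17 collagen genes had an unadjusted p under 0.05, and their median was 0.08. Of 15 endothelial genes, 4 were higher and 1 lower, with a median of 0.43 (0.27 without WT IgG1 replicate 2). Cldn5, of endothelial tight junctions, had 2.54 to 10.2 CPM in B2mKO aPD1, 2.58 to 4.13 CPM in B2mKO IgG1, 2.32 to 2.91 CPM in WT aPD1 and 2.94 to 6.12 CPM in WT IgG1 tumours and a difference of 1.69 ± 0.466 (unadjusted p = 0.00112), while Eng, a receptor for TGF-beta family ligands, had -0.81 ± 0.254 (unadjusted p = 0.0035). Of 8 adipocyte genes 4 were higher and 1 lower, with a median of 2.04 that was 1.10 without WT IgG1 replicate 1; the list summed to 14.9 to 38.9 CPM in B2mKO aPD1, 16.1 to 36.8 CPM in B2mKO IgG1, 26.9 to 37.4 CPM in WT aPD1 and 22.6 to 75.0 CPM in WT IgG1 tumours, and WT IgG1 replicates 1 and 2 were the highest. Skeletal muscle genes, none at an unadjusted p under 0.05, had a median of -0.83 that turned to 2.78 without B2mKO IgG1 replicate 5, 1.25 without WT aPD1 replicate 2 and 1.18 by limma voom, and sums of 4.27 to 166 CPM in B2mKO aPD1, 4.75 to 393 CPM in B2mKO IgG1, 3.35 to 658 CPM in WT aPD1 and 16.8 to 829 CPM in WT IgG1 tumours. The part of fat and muscle tissue in the results above was not tested.

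**Figure D5:**
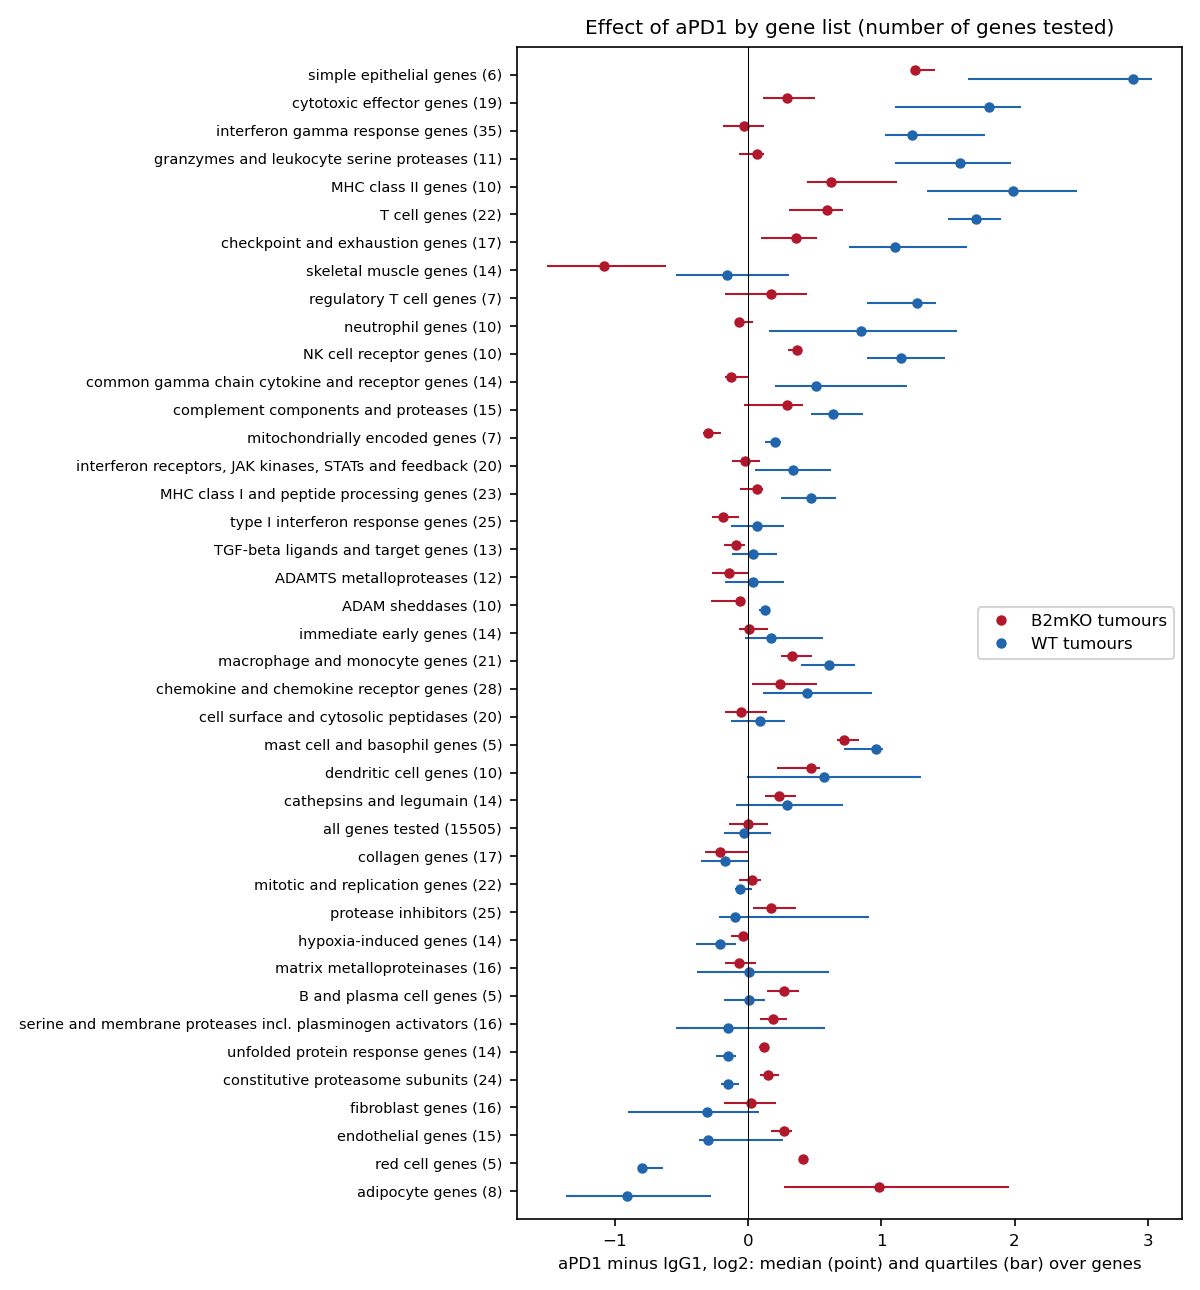
Median (point) and quartiles (bar) over genes of the log2 effect of aPD1 in B2mKO (red) and WT (blue) tumours for each gene list, with the number of genes tested and all genes tested for comparison. The 35 interferon gamma response genes centre at -0.03 in B2mKO and 1.23 in WT, and the list order follows the median difference.

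The series was designed around proteases, and no protease gene passed the threshold for the difference. Over 7 protease lists with 99 genes tested, 16 had an unadjusted p under 0.05 for a lower effect and 8 for a higher one, beside 6.69% and 9.43% of all genes, and the median difference was -0.14. Granzymes and leukocyte serine proteases were below 0 for 11 of 11, against 7669 of all 15505 genes. Their median was -1.21, and between -2.0 (without the libraries that stood apart) and -0.82 over the alternatives run. At an unadjusted p under 0.05, 2 of them were lower, Gzmb and Prss46 (-2.57 ± 0.854 (unadjusted p = 0.00545)). Cathepsins had 3 lower and 3 higher of 14; Ctss, a cathepsin of antigen-presenting cells, had 589 to 777 CPM in B2mKO aPD1, 386 to 722 CPM in B2mKO IgG1, 586 to 1719.7 CPM in WT aPD1 and 226 to 779 CPM in WT IgG1 tumours, a difference of -0.94 ± 0.431 (unadjusted p = 0.0386). Of 16 matrix metalloproteinases 9 had a difference above 0 and 7 below, with a median of 0.13, and 4 were lower at that p and none higher. Mmp25 was among the lower ones (-1.48 ± 0.585 (unadjusted p = 0.0171)). ADAM sheddases had 2 of 10 lower, among them Adam8 (-0.83 ± 0.286 (unadjusted p = 0.00737)). None of 12 ADAMTS genes had an unadjusted p under 0.05. Plasminogen activators and other secreted or membrane serine proteases had 5 of 16 higher and 1 lower. Plat, the tissue plasminogen activator, had 97.4 to 168 CPM in B2mKO aPD1, 83.3 to 116 CPM in B2mKO IgG1, 64.5 to 76.3 CPM in WT aPD1 and 74.0 to 154 CPM in WT IgG1 tumours, a difference of 0.76 ± 0.218 (unadjusted p = 0.00171), and Prss23 had 0.51 ± 0.194 (unadjusted p = 0.0135). Cell surface and cytosolic peptidases had 4 of 20 lower, led by Anpep (-1.51 ± 0.380 (unadjusted p = 0.000441)), with Ece1 at -0.52 ± 0.174 (unadjusted p = 0.00615).

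At an unadjusted p under 0.05, protease inhibitors had 2 of 25 lower and 1 higher, beside 6.69% and 9.43% of all genes. The median of the 25 was 0.09, and the higher one was Serpinh1, a collagen chaperone of the serpin family (0.50 ± 0.185 (unadjusted p = 0.011)). Complement genes had 3 of 15 lower and 1 higher, beside the same shares of all genes, with a median of -0.49. C3, the central complement component, had 55.9 to 101 CPM in B2mKO aPD1, 54.8 to 106 CPM in B2mKO IgG1, 61.0 to 268 CPM in WT aPD1 and 27.0 to 73.4 CPM in WT IgG1 tumours, a difference of -1.78 ± 0.435 (unadjusted p = 0.000323), and C5ar1, a complement receptor, had -0.76 ± 0.260 (unadjusted p = 0.00674). Constitutive proteasome subunits were above 0 for 23 of 24, against 7836 of all 15505 genes. At an unadjusted p under 0.05, 3 were higher, among them Psmb1 (0.62 ± 0.257 (unadjusted p = 0.0233)), beside 9.43% of all genes. The median of the 24 was 0.29. Without B2mKO aPD1 replicate 2 and WT IgG1 replicate 3 that median was -0.01.

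Jak1KO tumours, the third genotype of the series, were given the same antibodies, and the aPD1 effect in B2mKO tumours was set against theirs directly. No gene passed (0.0%; smallest adjusted p = 0.995 by edgeR), 292 (1.88%) reached an unadjusted p under 0.05, and the count was likewise 0 by DESeq2 and by limma voom. This does not show equal effects. In Jak1KO tumours the effects on the 13 genes were -0.11 to 0.91. The gene with the smallest p of the 13 was Heatr9, with effects of -0.58 in B2mKO and 0.91 in Jak1KO and a difference of -1.49 ± 0.382 (unadjusted p = 0.00055). For Cd274 the interval of that difference was -1.15 to 0.43 (95%, log2), and for Il2rg -1.11 to 0.13. Over the 540 genes that rose with aPD1 in WT, the median effect was 0.097 in B2mKO and 0.065 in Jak1KO tumours. Set against WT, the Jak1KO effect passed the threshold for 0 genes (0.0%, smallest adjusted p = 0.199 by edgeR), and 1249 (8.06%) reached an unadjusted p under 0.05. For each of the 13 genes the Jak1KO minus WT difference was also below 0, from -1.84 for Cd274 to -0.39 for Nab1 (log2). That comparison shares the WT libraries with the one described here, and these helped to choose the 13 genes, so the signs are a description.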

How the data were processed

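RNA of 30 MC38 tumour libraries was measured by paired-end sequencing (TruSeq RNA kit, per the labels' protocols), and 20 of them enter the comparison. The deposited values are raw counts per gene that the authors obtained by running featureCounts 2.0.0 against GRCm38, Ensembl release 99, with no option for strand, pairs or multiply mapped reads in the command, per the file headers. Reads of overlapping genes on opposite strands can therefore not be told apart. The submitters' processing notes list mm10, edgeR 3.24.3, Cufflinks 2.2.1, STAR 2.5.2a and FastQC 0.11.2 without their settings. In the header of WT aPD1 replicate 2 the alignment file has a name that does not match the sample, and the deposited counts were kept. Identifiers without a symbol held 0.047% of counts.

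Groups came from the labels. Genes were kept by filterByExpr (minimum count 10, minimum total 15), libraries scaled by TMM, and all 30 entered 1 quasi-likelihood fit with 6 group means (edgeR 4.0.16, package defaults, in R 4.3.3), so the Jak1KO libraries shared in the estimate of spread. P-values were adjusted over all 15505 genes by Benjamini-Hochberg, with a threshold of 0.05. The SE is the absolute log2 effect divided by the square root of F. CPM relate a gene's count to the scaled library total (edgeR's cpm). Of the statistics, the edgeR test of the difference was tried on simulated counts with known changes in the B2mKO aPD1 group. DESeq2 1.42.0 and limma 3.58.1 (voom) were alternatives, beside other filters, scalings, fits and omitted libraries. No library was a repeat of another of its group: chi-square per degree of freedom was 6.85 to 217 over 60 replicate pairs. Pairs across groups were not compared in this way.

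Named genes are B2m, Jak1, every gene past the threshold, the next by p to 30 in all (at least 1 CPM in a group, at least 8 higher), and for each list up to 4 members of smallest p, some of which are not reported here. The comparison, the 41 gene lists and the tests were chosen with earlier results of these data known. Of 621 genes in the lists, those too low to test are left out of counts, medians and sums.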

Additional observations from a re-analysis of the deposited data

Results flagged for a closer look

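For 15 genes the effect of aPD1 in B2mKO tumours differed from that in WT tumours by a test of the difference itself (edgeR adjusted p under 0.05). On the log2 scale the B2mKO minus WT difference was -2.20 for Cd274, -2.03 for Slco3a1, -1.91 for Heatr9, -1.76 for Nod2, -1.74 for Il2rg, -1.70 for Gbp4, -1.50 for Gbp7, -1.48 for Slc4a11, -1.33 for Samhd1, -1.28 for Lrrtm2, -1.21 for Irgm1, -0.75 for Tap2, -0.57 for Nab1, 1.58 for Rwdd2a and 3.33 for Kcne3.

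In 27 of 316 combinations of a gene and a group of 5 libraries, 1 library lay far from the other 4 (gap over range above 0.71). For independent, normally distributed values about 1 in 20 would. The genes here were named partly for their difference and share the same libraries, so these rates are not on a par and nothing is read from them. WT aPD1 replicate 4 was the lowest of its group for Gbp4 (251 CPM), Il2ra (5.84 CPM) and Il15ra (24.6 CPM). The same library was the highest for Klhl4 (1.84 CPM), Fcrls (46.0 CPM), Wscd1 (1.08 CPM) and Mrc1 (76.8 CPM). B2mKO aPD1 replicate 2 was the lowest for Slc4a11 (4.46 CPM), Ikbke (13.1 CPM) and Nlrc5 (24.9 CPM) and the highest for Ccl9 (171 CPM), Plat (168 CPM), Serpinh1 (1974.2 CPM) and Psmb1 (316 CPM). WT IgG1 replicate 3 was the lowest for Jak1 (182 CPM) and the highest for Gzmb (19.3 CPM), Ccl9 (96.9 CPM), Serpinh1 (2289.9 CPM) and Psmb1 (308 CPM). WT IgG1 replicate 4 was the highest for Oas3 (102 CPM), Tapbp (714 CPM) and Il2ra (10.5 CPM). The other 5 were Mrc1 in B2mKO aPD1 replicate 3 (242 CPM), and in B2mKO IgG1 tumours Nab1 in replicate 1 (98.2 CPM), Icos in replicate 2 (5.31 CPM), Oas3 in replicate 3 (88.8 CPM) and Havcr2 in replicate 4 (21.7 CPM).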

How the results depend on the processing

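The number of genes past the threshold for the B2mKO minus WT difference (15) was 121 by DESeq2 (23 higher, 98 lower, 14 of the 15 among them), 8 in a fit of the 20 libraries alone, 0 without WT IgG1 replicate 3 and B2mKO aPD1 replicate 2 together, and 0 to 125 with 1 library left out. With RLE size factors, other filters, limma voom, robust fitting and, chosen after seeing the data, bias-adjusted deviances it was between 11 and 16. The main fit did not treat same-numbered libraries as pairs. Correlations of same-numbered deviations ran from -0.52 to 0.46. In 8 of 30 comparisons of a library with another group, the best-correlated library had the same number, which 1 of the 5 libraries of each group bears. Whether same-numbered libraries shared a batch was not tested. With the replicate number as a block the count was 3. For aPD1 in WT tumours the count of 630 was 391 in the fit of the 20 libraries and 206 to 1041 with 1 library left out. For aPD1 in B2mKO tumours, and for B2mKO set against Jak1KO tumours, the count was 0 under every alternative run. The B2mKO median effect of genes that rose in WT (0.097) ranged from 0.042 to 0.158. Of 2444 alternative values of single genes, 1 changed sign: the Jak1 difference was 0.01 without WT IgG1 replicate 3 and B2mKO aPD1 replicate 2, and the cause was not tested. Adjusted p-values of the 15 genes ranged up to 0.168 over all alternatives. Of 41 list medians of the difference, 25 kept their sign under each of 31 alternatives, and 7 of these also stayed within 1.5 times their value (interferon gamma response, cytotoxic, T cell, checkpoint, common gamma chain, red cell and complement genes). Of the 16 that lost their sign or reached 0 under an alternative, those with the largest medians were the simple epithelial, skeletal muscle, proteasome and plasminogen activator lists. At 0.167 to 2.25 CPM, values such as those of Heatr9 and Rwdd2a rest on few counts, which limits their precision.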

Other observations

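Several lists outside immunity, stroma and proteases were also counted for the difference of aPD1 effects, and none had a gene past the threshold. Of 14 unfolded protein response genes, 6 had an unadjusted p under 0.05 for a higher effect in B2mKO and none for a lower one, beside 9.43% and 6.69% of all genes, and the median difference was 0.27. Their summed level was 6052, 7674, 6204, 6164 and 6076 CPM in B2mKO aPD1 and 6804, 6307, 5792, 5397 and 6167 CPM in B2mKO IgG1 tumours. In WT it was 5311, 5646, 6389.8, 5679.9 and 5609 CPM with aPD1 and 5963, 5763, 8051, 5978 and 5789 CPM with IgG1. The highest value of B2mKO aPD1 (replicate 2) and of WT IgG1 (replicate 3) came from the libraries that also had the lowest collagen sums of their groups. Without both of these libraries the median difference was 0.11, and without WT IgG1 replicate 3 alone it was 0.17.

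Of 22 mitotic and replication genes 1 was higher at an unadjusted p under 0.05, with a median of 0.08. None of 14 hypoxia-induced genes was at that p, with a median of 0.10. Of all genes 6.69% were lower and 9.43% higher at that p, for comparison with each list here. Of 14 immediate early genes 2 were lower (median -0.18), and of 13 TGF-beta ligand and target genes 1 was lower (median -0.21, and -0.05 without WT aPD1 replicate 2). The 7 mitochondrially encoded genes tested, of 13, had none at that p and a median of -0.49 (-0.14 without WT IgG1 replicate 3 and B2mKO aPD1 replicate 2), with sums of 10501 to 20174 CPM in B2mKO aPD1, 18492 to 21848 CPM in B2mKO IgG1, 9794 to 20283 CPM in WT aPD1 and 8696 to 18483 CPM in WT IgG1 tumours. Of 5 red cell genes tested, of 7, 1 was higher (median 1.20), with sums of 12.1 to 79.3 CPM in B2mKO aPD1, 8.81 to 63.9 CPM in B2mKO IgG1, 32.6 to 75.9 CPM in WT aPD1 and 38.5 to 168 CPM in WT IgG1 tumours. Of 5 B and plasma cell genes tested, of 11, 1 was higher (median 0.26, and 0.07 without B2mKO IgG1 replicate 1). Of 5 mast cell and basophil genes tested, of 8, none was at that p (median -0.04), nor were 3 skin and hair keratinocyte genes tested, of 10 (median -0.06). Of 6 simple epithelial genes tested, of 10, 1 was lower, at the low levels given above, and their median of -1.52 turned to 1.56 without WT aPD1 replicate 3 and to 1.6 without B2mKO IgG1 replicate 3 and was -4.35 without B2mKO aPD1 replicate 2.

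In a principal component analysis of the 1000 most variable genes, the first component held 42.2% of the variance. B2mKO tumours lay at -36.8 to 3.6 and WT tumours at 9.5 to 42.8, and the 2 B2mKO tumours nearest to WT, aPD1 replicate 3 (3.6) and IgG1 replicate 5 (2.7), had the highest skeletal muscle sums of their groups, 166 and 393 CPM. The 2 WT tumours farthest from B2mKO, aPD1 replicate 2 (42.8) and IgG1 replicate 2 (38.4), also had the highest muscle sums of their groups, 658 and 829 CPM. How far this component follows genotype or muscle was not tested.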
